A study of Mus musculus with 4 samples.

Results

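The secreted blood stem cell niche factors examined here are 9 genes whose proteins act on blood stem and progenitor cells: Cxcl12, Kitl, Il7, Angpt1, Thpo, Flt3l, Epo, Csf3 and Ptn. They were found by their gene symbol among the 56980 genes of the count table, and each symbol matched 1 row. The libraries are bulk RNA-seq of bone marrow mesenchymal stromal cells (MSCs) from 4 male wild-type C57BL/6J mice aged 14 weeks, a line kept inbred in-house, with 1 library of 100 sorted cells per mouse. The labels name no transgene or treatment, so the 4 libraries form a single group, and the values describe how much of each factor the cells expressed and how much that varied between mice. The sort kept CD51+ PDGFRa+ cells and left out those with CD45, Ter119, CD31 or Sca1.

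Blood stem cells are held in the marrow by signals from stromal cells around blood vessels. CXCL12 is a chemokine that attracts and retains stem cells through the receptor CXCR4. Stem cell factor, encoded by Kitl, keeps them alive through the receptor KIT, and IL-7 carries B cell precursors through their early stages. Angiopoietin-1, pleiotrophin and FLT3 ligand have been described as further niche or progenitor signals. Thrombopoietin, erythropoietin and G-CSF, encoded by Thpo, Epo and Csf3, drive platelet, red cell and neutrophil production and are known to reach the marrow in large part from other sources, the liver and kidney for the former pair.

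In these MSCs Cxcl12 and Kitl were the most abundant factors, and from Angpt1 down no factor differed from the next lower one beyond the spread between mice. Cxcl12 stood far above the rest at 2154 ± 1556 TPM (mean ± SD, n = 4), Kitl followed at 62.1 ± 40.9 TPM, and Angpt1 and Il7 lay at 15.2 ± 14.2 and 13.3 ± 11.8 TPM. Mouse 2 raised these means, which without it were 1429 TPM for Cxcl12, 45.6 for Kitl, 8.60 for Angpt1 and 8.47 for Il7. Ptn and Flt3l were near the bottom of the detected range. Epo and Thpo were each found in a single mouse, and Csf3 in none. TPM is the count of a gene divided by its exon length and scaled so that each library sums to 1000000. Levels can then be compared between genes, though only roughly where a gene has transcripts of unlike length. For Cxcl12 the exons together have 8176 bases, and its shortest complete coding transcript has 1878. Scaled without the 10 highest genes in the denominator, the means were 3424 TPM for Cxcl12, 99.2 for Kitl, 24.87 for Angpt1 and 21.03 for Il7.

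A gene was taken as expressed when the median of its 4 TPM values exceeded 1. By this measure 6 of the 9 factors were expressed, where 44.2% of all 21922 protein-coding genes were. Above 1 TPM in every mouse were 4 of the 9, namely Cxcl12, Kitl, Il7 and Angpt1, beside 30.1% of protein-coding genes. At least 3 counts in every mouse were reached by 6 of the 9, beside 37.5%, and 1 of the 9, Csf3, had 0 counts in every mouse, beside 29.4%. With 9 genes such shares are a description only.

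Both leading factors are made in several forms that differ in sequence, and the table counts all forms of a gene together, so the values below are sums over them. The coding ends of the 3 complete Cxcl12 transcripts in GENCODE M21 are shown because these ends are all that separates their coding sequences. The alpha form is the short, widely made chemokine, and the gamma form has a long, basic tail that binds matrix sugars. The 3 transcripts share their first 2 coding exons and 87 bases of the next, at chr6:117173492-117173578 of GRCm38 on the plus strand (lower case). Capitals mark the bases that each transcript adds. The alpha form adds 1 base of the same exon. The beta form adds 13 bases at chr6:117178583-117178595, and the gamma form adds 91 bases at chr6:117176086-117176176.
Cxcl12 alpha: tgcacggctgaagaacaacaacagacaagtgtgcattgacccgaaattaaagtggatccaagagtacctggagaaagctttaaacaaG
Cxcl12 beta: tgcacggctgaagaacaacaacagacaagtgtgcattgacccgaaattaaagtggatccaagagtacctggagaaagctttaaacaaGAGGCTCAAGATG
Cxcl12 gamma: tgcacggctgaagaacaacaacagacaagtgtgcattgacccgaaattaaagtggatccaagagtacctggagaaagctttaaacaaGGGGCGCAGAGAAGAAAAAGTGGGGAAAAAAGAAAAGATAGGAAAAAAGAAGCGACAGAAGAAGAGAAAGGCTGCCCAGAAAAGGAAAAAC
The whole coding sequence without the stop codon has 267 bases in the alpha form, 279 in the beta form and 357 in the gamma form.

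Kitl is shown for a like reason. Cxcl12 is secreted, while stem cell factor is first made as a membrane protein, and an exon that only the longer transcript holds carries the site where proteases release the soluble protein. That exon has 84 bases at chr10:100080857-100080940 of GRCm38 on the plus strand. It is printed in capitals between 30 bases of the coding exon before it and 30 of the one after it.
Kitl with the exon: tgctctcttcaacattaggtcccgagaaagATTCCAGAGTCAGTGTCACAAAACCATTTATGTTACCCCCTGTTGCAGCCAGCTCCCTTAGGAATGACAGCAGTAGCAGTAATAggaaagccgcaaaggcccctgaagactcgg
Kitl without the exon: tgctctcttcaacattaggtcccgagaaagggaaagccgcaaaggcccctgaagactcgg
Counts per gene cannot tell how much of the Kitl RNA held this exon. The level of Kitl below is therefore a level of all its forms, membrane-bound and soluble.

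**Figure D1:**
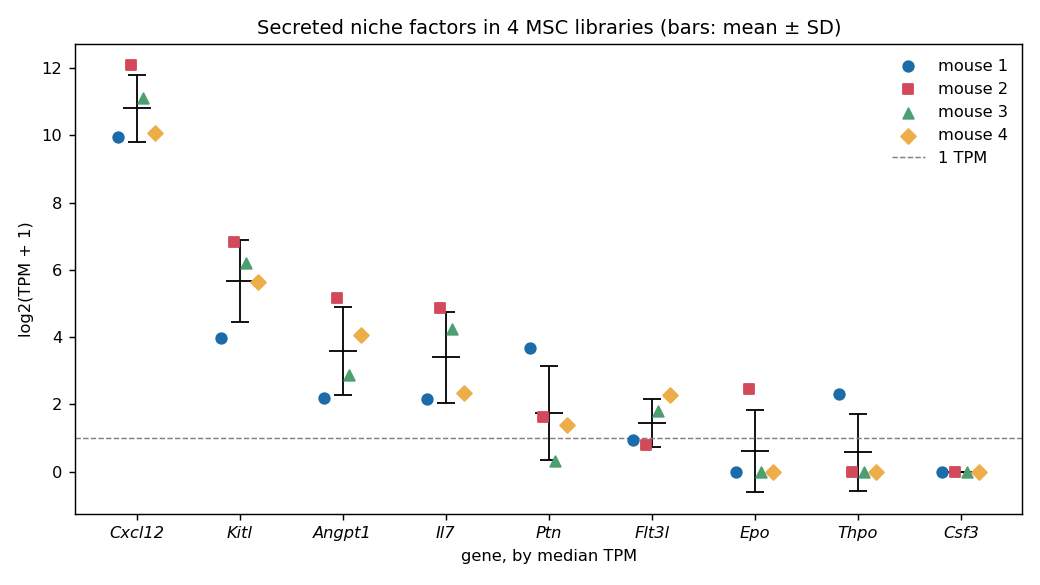
Level of the 9 factors in each of the 4 mice, as log2(TPM + 1), ordered by median TPM; points are mice, bars give the mean ± SD, and the dashed line marks 1 TPM. Cxcl12 sits between 983 and 4329 TPM, Kitl, Angpt1 and Il7 lie above the line in every mouse, and Epo and Thpo are each above 0 in 1 mouse.

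Cxcl12 (ENSMUSG00000061353) lies on chromosome 6 from 117168535 to 117181367 on the plus strand (GRCm38), with 4 exons in the longest transcript. The libraries of mice 1, 2, 3 and 4 held 141398, 393766, 314198 and 91187 counts of it. These correspond to 983, 4329, 2224 and 1079 TPM. The median of 1652 TPM placed Cxcl12 at rank 52 among the protein-coding genes. Mouse 2 was highest and mice 1 and 4 were lowest, with a ratio of highest to lowest of 4.40, which fell to 2.26 without mouse 2. The coefficient of variation over the mice was 72.2%, where counting error alone would give 0.211%. That error takes every count as a separate molecule, which amplified copies are not. Among the 81 protein-coding genes with a mean between 1000 and 10000 TPM, the median coefficient of variation was 17.4% and the median ratio of highest to lowest was 1.46. Cxcl12 therefore varied more between mice than the middle gene of its abundance class. In a bulk library, fewer cells that make a factor and less RNA of it per cell cannot be told apart. No mouse had a repeat library. Differences between mice therefore include any differences between sorts, amplifications and libraries, and their part was not tested. Both limits hold for every factor here.

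Cxcl12 also made up nearly all of the RNA of this group of genes. Its share of the summed TPM of the 9 factors ran from 93.6% in mouse 4 to 96.2% in mouse 1. Without it, the other 8 factors summed to 38.6, 182, 100.4 and 73.8 TPM in mice 1 to 4. The summed level was again lowest in mouse 1 and highest in mouse 2.

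The promoter of Cxcl12 is printed because Cxcl12 is the one factor among the most abundant genes of these cells. The 250 bases before its annotated RefSeq start cover chr6:117168285-117168534 of GRCm38.p6 on the plus strand. Capitals mark matches to the GC box, GGGCGG on either strand, which is the sequence bound by SP family factors.
Cxcl12: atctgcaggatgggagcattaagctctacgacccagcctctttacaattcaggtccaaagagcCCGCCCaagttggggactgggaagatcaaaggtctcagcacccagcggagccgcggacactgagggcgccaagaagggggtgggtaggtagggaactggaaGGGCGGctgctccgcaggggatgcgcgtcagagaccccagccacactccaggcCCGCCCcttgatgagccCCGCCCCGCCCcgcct
This window is rich in G and C, at 64.4% against a median of 52.4% over 32851 RefSeq promoters, and it holds 14 CpG where the median promoter holds 6. GC boxes occur 5 times, some of them touching or overlapping, and 32.7% of all promoters hold at least 1. The letters CCCNNGGG, a core bound by EBF factors, are absent from this window and are found in 11.8% of promoters. A TATA box, TATAAA, is likewise absent and is found in 12.4%. These are matches of letters in a short window, not binding sites. Promoter entries were matched for 6 of the 9 factors, and those of Il7, Angpt1 and Csf3 are named only.

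Kitl (ENSMUSG00000019966) spans 100015630 to 100100416 on the plus strand of chromosome 10, with 10 exons in its longest transcript. It had 1546, 7356, 7496 and 2959 counts in mice 1 to 4. These correspond to 14.9, 112, 73.4 and 48.4 TPM, a median of 60.9 TPM and rank 1371 among protein-coding genes. The order of the mice was that of Cxcl12, from mouse 2 through mice 3 and 4 down to mouse 1. Kitl spread over a wider range, 7.52 from highest to lowest, which fell to 2.31 without mouse 1 and to 4.94 without mouse 2. The middle protein-coding gene with a mean of 10 to 100 TPM had a ratio of 2.89.

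Il7 (ENSMUSG00000040329, chromosome 3, 7569994 to 7613760, minus strand) had 348, 1763, 1752 and 235 counts. Its levels were 3.49, 28.0, 17.9 and 4.01 TPM. Mice 2 and 3 were high and mice 1 and 4 were low, and the ratio of highest to lowest was 8.01, or 5.13 without mouse 2. An antisense gene, Gm16685, shares 105 of the exonic bases of Il7 (1.85%) and had 0, 0, 38 and 117 counts. The stated counting used no strand option, so reads from the shared bases cannot be assigned to either gene by strand.

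Angpt1 (ENSMUSG00000022309, chromosome 15, 42424723 to 42676977, minus strand) had 330, 2020, 571 and 853 counts. In TPM these are 3.60, 34.9, 6.35 and 15.9. Mouse 2 was again highest and mouse 1 lowest, but mouse 4 stood above mouse 3, so that mice 2 and 4 were both above mice 1 and 3. The sample numbers in the column names also set mice 2 and 4 apart from mice 1 and 3, and what those numbers stand for is not given in the sources used here. The range of 9.68 from highest to lowest fell to 5.49 without mouse 1 and to 4.40 without mouse 2. The antisense gene Gm17473 shares 737 exonic bases with Angpt1 (14.2%) and had 0 counts in every mouse.

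Ptn (ENSMUSG00000029838, chromosome 6, 36714929 to 36810220, minus strand), which encodes the heparin-binding growth factor pleiotrophin, had 711, 80, 15 and 57 counts. The levels were 11.8, 2.09, 0.253 and 1.61 TPM. Mouse 1, lowest for Cxcl12, Kitl, Il7 and Angpt1, was highest for Ptn, and mouse 3 was lowest. The range of 46.6 from highest to lowest was set by these mice and was 8.28 without mouse 1 and 7.33 without mouse 3. The mean of 3.93 ± 5.28 TPM (SD, n = 4) was 1.32 TPM without mouse 1. Protein-coding genes with a mean of 1 to 10 TPM had a median range of 30.5. That median takes the 35.3% of them with a library at 0 counts as having an unlimited range. Ptn had counts in every mouse, so 30.5 is not the middle range of genes found, like Ptn, in all 4. Mouse 1 also had the highest summed level of the erythroid markers (4980 TPM, against 35.0 to 1708 TPM in the others), the neutrophil markers (39.7 TPM, against 6.84 to 19.7) and the megakaryocyte markers (7.95 TPM, against 0 to 0.683). Of the megakaryocyte sum in mouse 1, 7.87 TPM came from Gp9 alone. The neutrophil gene S100a9 was at 3.92 TPM in mouse 1 and highest in mouse 2, at 19.6 TPM. Other blood markers were highest in other mice. Macrophage markers summed to 16.1 TPM in mouse 3, and lymphoid and progenitor markers to 1.46 and 2.38 TPM in mouse 4. The part of any of these markers in the Ptn level was not tested.

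Flt3l (ENSMUSG00000110206, chromosome 7, 45129788 to 45136432, minus strand) had 62, 32, 166 and 154 counts, or 0.909, 0.742, 2.48 and 3.84 TPM. Mice 3 and 4 were above 1 TPM and mice 1 and 2 below it, and the ratio of highest to lowest was 5.18, or 3.34 without mouse 4. Its median of 1.69 TPM stays above the cutoff only while both mice 3 and 4 are included. The gene Gm45713 on the same strand shares 856 exonic bases with Flt3l (22.1%) and had 0 counts in every mouse, and reads that fit both genes are by default left uncounted by featureCounts.

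Of the 3 factors that circulate as hormones, Thpo and Epo were each found in a single mouse and Csf3 in none. Thpo in mouse 1 was above Il7 (3.49 TPM) and Angpt1 (3.60 TPM) of that mouse. Epo in mouse 2 was above Ptn (2.09 TPM) and Flt3l (0.742 TPM) of that mouse. Thpo (ENSMUSG00000022847, chromosome 16, 20724454 to 20734511, minus strand) had 182 counts, or 3.94 TPM, in mouse 1 and 0 in the others. Epo (ENSMUSG00000029711, chromosome 5, 137483020 to 137533242, minus strand) had 43 counts, or 4.52 TPM, in mouse 2 and 0 in the others. Csf3 (ENSMUSG00000038067, chromosome 11, 98701263 to 98703629, plus strand) had 0 counts in all 4. In mouse 4, the shallowest library, 3 counts correspond to 0.110 TPM of Thpo, 0.340 TPM of Epo and 0.205 TPM of Csf3. These values cover counting error alone, because amplified copies are not separate molecules, so a count of 0 does not exclude a higher level. Among protein-coding genes with a mean of 1 to 10 TPM, 35.3% had a library with 0 counts.

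Epo and Thpo both share exonic bases with a neighbouring gene. Epo shares 104 exonic bases (12.2%) with Gnb2 on the same strand. Gnb2 had 1503, 1303, 2130 and 1396 counts in mice 1 to 4. Thpo shares 239 exonic bases (9.09%) with Chrd, an antisense neighbour with 4, 370, 427 and 0 counts. Near-identical stretches were otherwise found only for Angpt1, with Gm17473 (737 bases), and for Flt3l, with Gm45713 (707 bases). Both of these genes are named above and had 0 counts in every mouse.

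Each factor was then compared with the next lower one within each mouse, by an exact permutation test that flips the sign of each mouse's difference in log2(TPM + 1), two-sided. Over 4 mice this test cannot give a p below 0.125, so no pair can pass a threshold of 0.05. Cxcl12 exceeded Kitl in 4 of 4 mice by 5.14 ± 0.64 (SD; p = 0.125, adjusted p = 0.5 over the 8 pairs by Benjamini-Hochberg, exact permutation test). Kitl exceeded Angpt1 in 4 of 4 mice by 2.08 ± 0.84 (the same exact p and adjusted p). These differences were larger than their spread between mice.

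The other 6 neighbours did not differ beyond their spread. Angpt1 and Il7 differed by 0.18 ± 1.28 on the log2 scale, with Angpt1 higher in 3 of 4 mice (exact permutation p = 0.625). Il7 was above Ptn in 3 of 4 mice by 1.64 ± 2.46 (exact permutation p = 0.375), the exception being mouse 1. Ptn and Flt3l differed by 0.30 ± 1.90, with Ptn higher in mice 1 and 2 and Flt3l in mice 3 and 4. Flt3l and Epo differed by 0.84 ± 1.76, Epo and Thpo by 0.04 ± 1.95 and Thpo and Csf3 by 0.58 ± 1.15. After adjustment the exact p was 0.75 or 1 for each of these 6 pairs.

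**Figure D2:**
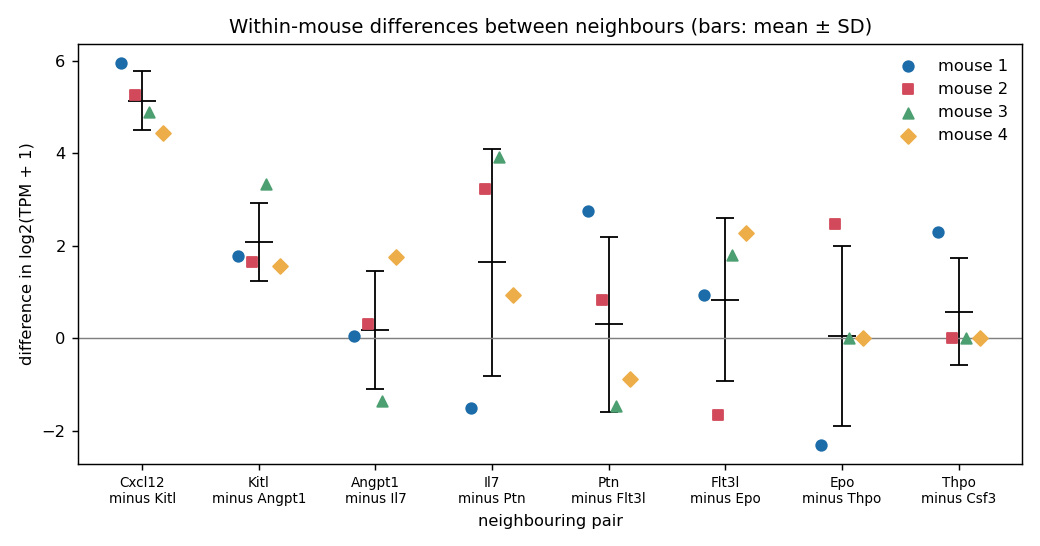
Within-mouse differences in log2(TPM + 1) between each factor and the next lower one; points are mice and bars give the mean ± SD of 4 mice. For the first 2 pairs all mice lie above 0, and for the rest the bar crosses 0.

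The 4 most abundant factors shared their extremes. Cxcl12, Kitl, Il7 and Angpt1 were each highest in mouse 2 and lowest in mouse 1, which is 4 of the 6 expressed factors. Among all 9684 expressed protein-coding genes, 931 (9.61%) had these extremes. Of the list of stromal niche-cell genes, 8 of the 11 expressed members had them, and of the list of osteoblast markers 1 of 8 did. Flt3l was highest in mouse 4 and lowest in mouse 2, and Ptn was highest in mouse 1 and lowest in mouse 3. With 4 mice no correlation was computed.

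**Figure D3:**
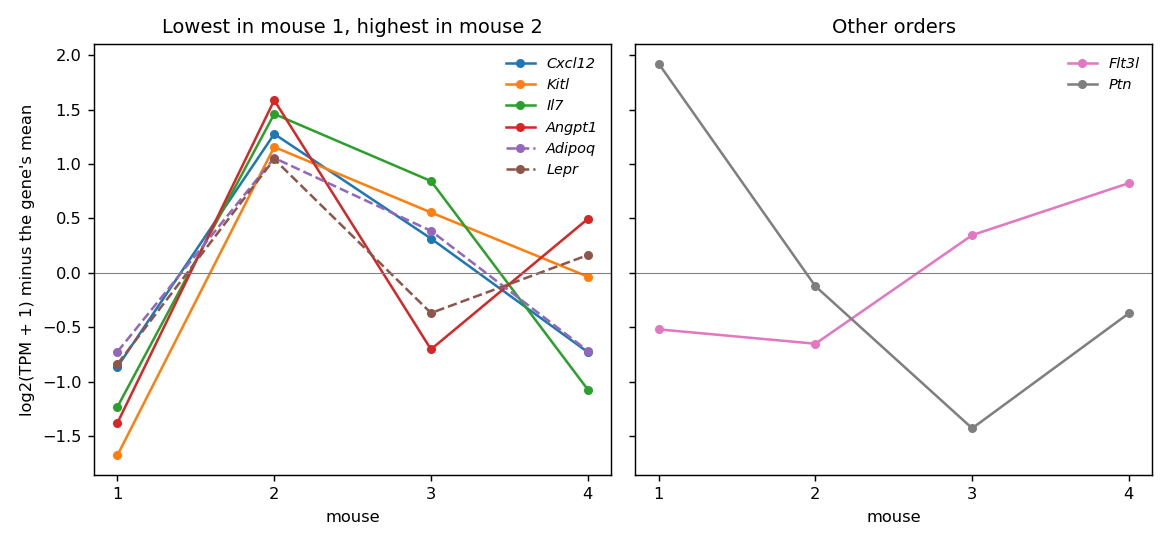
Level of each gene in mice 1 to 4 as log2(TPM + 1) minus the gene's own mean; lines only join the points of a gene. Cxcl12, Kitl, Il7 and Angpt1 peak in mouse 2 beside the niche-cell genes Adipoq and Lepr (dashed), while Flt3l peaks in mouse 4 and Ptn in mouse 1.

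The genes whose pattern over the 4 mice was most like that of a factor were found by the root mean square (RMS) difference in log2(TPM + 1), with each gene centred on its own mean, among protein-coding genes with a median above 10 TPM. For Cxcl12 these were Bmp6 (RMS 0.084), a secreted factor of the BMP family, M6pr (0.118), which sorts lysosomal enzymes, and Adipoq (0.135), which encodes the hormone adiponectin and marks fat-lineage stromal cells. The comparison ran over 4803 genes. Adipoq was measured at 184, 635, 399 and 185 TPM in mice 1 to 4, so that Cxcl12 was 5.33, 6.82, 5.58 and 5.82 times as high. While each gene moved over a range of 3 or more between mice, their ratio moved by 1.28. This steady ratio restates the small RMS by which Adipoq was found and is not a further result. Adipoq fell from rank 3 to between 10 and 39 when a mouse was left out, so its place in the order rests on few values.

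**Figure D4:**
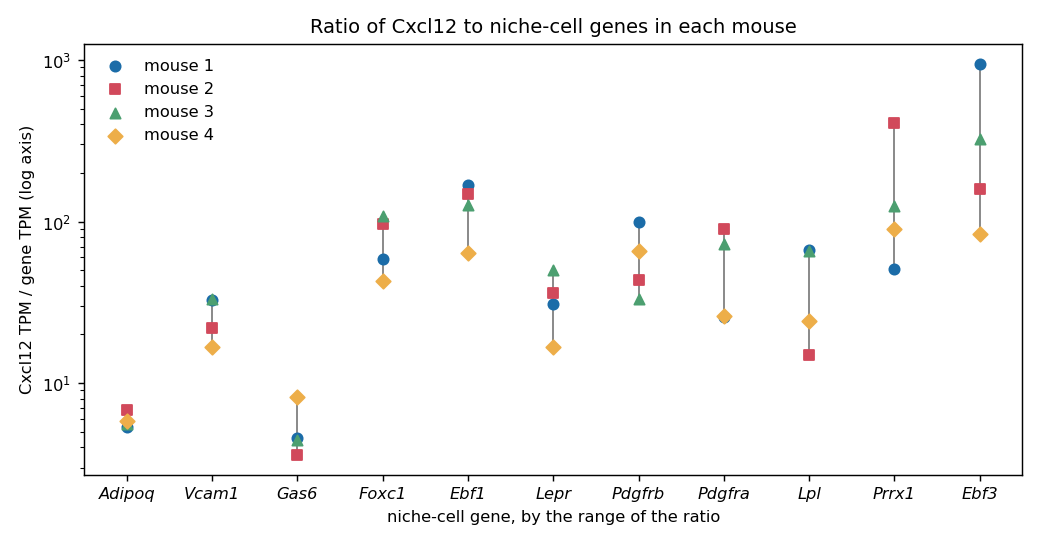
Ratio of Cxcl12 TPM to the TPM of each of 11 niche-cell genes in each mouse, on a log axis, ordered by how far the ratio moved; grey lines join the lowest and the highest mouse. The ratio to Adipoq stays between 5.33 and 6.82, and that to Ebf3 runs from 83.5 to 950.

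The other niche-cell genes, several of which are named here after their values were seen, followed Cxcl12 less closely. Its ratio to Vcam1, an adhesion molecule of stromal cells, ran from 16.8 to 33.0, and that to Lepr, the leptin receptor that defines perivascular stromal cells, from 16.7 to 50.0. Ratios to the transcription factor genes Ebf1 and Foxc1 moved by 2.61 and 2.53. Prrx1, a gene of early limb mesenchyme, ran the other way, with 19.4 TPM in mouse 1 and 10.6 TPM in mouse 2, and the ratio moved by 8.09.

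For Kitl, the closest genes were Rab4a (RMS 0.086), which encodes an endosomal GTPase, Tmem86a (0.108) and Hspb6 (0.145), a small heat shock protein gene. Cxcl12 came at rank 167 of 4803, with an RMS of 0.550. Among niche-cell genes the closest to Kitl was Ebf1, at rank 35, and the ratio of Kitl to Ebf1 stayed between 2.54 and 4.18. Kitl and Lepr were of like level, at 0.466, 0.931, 1.65 and 0.747 Kitl for each Lepr.

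Il7 followed another gene of mural and stromal cells, Pdgfrb, which encodes a receptor for platelet-derived growth factor. Il7 was at 0.355, 0.281, 0.267 and 0.246 of the Pdgfrb TPM in mice 1 to 4, and Pdgfrb came at rank 7 of the genes compared with Il7. This rank was 42 without mouse 2 and 43 without mouse 4. Angpt1 was nearest to Lepr (rank 22) and Vcam1 (rank 25) among the niche-cell genes, and its ratio to Lepr ran from 0.113 to 0.290. Pdgfrb, Lepr and Ebf1 were singled out after their values were seen.

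The cells were checked against marker genes. Each library held between 22738604 and 43545349 counts on genes. Mouse 2 had the fewest genes with a count, 16109, against 18683, 18907 and 18802 in mice 1, 3 and 4. The part of this difference in the high values of mouse 2 was not tested. The genes of both antigens used for positive sorting were present in every mouse, with Pdgfra at 30.7 to 48.2 TPM and Itgav at 12.9 to 18.1 TPM. Ptprc and Pecam1, for CD45 and CD31, had at most 50 and 14 counts. Ly6a, for Sca1, had 1, 120, 0 and 144 counts although the sort left out Sca1+ cells. Niche-cell genes passed the cutoff in 11 of 12 cases (Nes was the exception), beside 44.2% of all protein-coding genes. Gas6 was at a median of 358 TPM, Adipoq at 292 and Vcam1 at 65.9. Osteoblast genes were far higher, however, and the 8 osteoblast markers summed to between 214477 and 329149 TPM, led by Bglap, Bglap2 and Spp1, so that osteoblast genes make up a large share of libraries labelled MSC. Their summed level was lowest in mouse 3 and highest in mouse 4, as were Bglap and Bglap2, an order that differs from that of Cxcl12. Single markers had other orders. Runx2 was highest in mouse 2 and lowest in mouse 1, the extremes of Cxcl12, as 1 of the 8. Sp7 was highest in mouse 1, and Alpl was lowest in mouse 2.

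Of the markers of blood and vessel cells, the erythroid genes were the exception to low levels, at 4980, 35.0, 1708 and 358 TPM in sum over mice 1 to 4, so that in mouse 1 they exceeded Cxcl12. Neutrophil markers summed to 6.84 to 39.7 TPM. At 0 counts in every mouse were the endothelial genes Cdh5 and Kdr, the macrophage genes Adgre1, Csf1r and C1qa, the neutrophil gene Ltf, the megakaryocyte gene Itga2b, the lymphoid genes Cd3e, Ms4a1 and Nkg7 and the pericyte gene Acta2. Endothelial markers summed to 13.6 to 39.6 TPM, nearly all of it from Eng, macrophage markers to 0.254 to 16.1 TPM, lymphoid markers to 0 to 1.46 TPM and stem and progenitor markers to 0.00923 to 2.38 TPM. Pericyte markers summed to 2.08 to 29.6 TPM, Schwann cell markers to 15.5 to 67.2 TPM, chiefly S100b, chondrocyte markers to 363 to 615 TPM, chiefly Col2a1 and Col11a2, and adipocyte markers to 231 to 1083 TPM. The last followed the 4 leading factors, with mouse 2 highest and mouse 1 lowest, and 3 of its 5 genes, Adipoq, Lepr and Lpl, are also on the list of niche-cell genes.

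The receptors for the factors are known mainly from the blood cells that respond. Of the 15 on the list, 6 were expressed in these libraries, beside 44.2% of all protein-coding genes. Those for the 2 leading factors were low. Cxcr4, the signalling receptor for CXCL12, had 3, 0, 0 and 16 counts, and the scavenging receptor Ackr3 had 153, 0, 55 and 10. Kit, the receptor for stem cell factor, had 207 counts in mouse 2, 133 in mouse 4 and 0 in mice 1 and 3, where its ligand was at 14.9 and 73.4 TPM. Tek, the receptor for angiopoietins, was found in the same mice, with 58 and 42 counts, while Tie1, its partner on endothelial cells, had 0 throughout.

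Mice 2 and 4 were thus the ones with Kit and Tek counts. The same mice held nearly all counts of the pericyte gene Rgs5 (0, 1470, 0 and 138) and of Ly6a. The other pericyte markers did not set these mice apart. Cspg4 had 621, 74, 428 and 924 counts, Myh11 had 92 in mouse 4 alone, and Acta2 had 0 throughout. The defining endothelial genes Cdh5 and Kdr were at 0 in these mice as in the others. The part of cells with Rgs5 or Ly6a in the counts of Kit, Tek or Angpt1, which was also higher in mice 2 and 4, was not tested.

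Receptors for the lymphoid and blood hormone signals differed in level. Il7r had 123 counts in mouse 4 and 0 in the others. Il2rg, the chain that the IL-7 receptor shares with other cytokine receptors, was even over the mice, at 22.9, 25.3, 29.0 and 24.2 TPM, although 728 of its exonic bases overlap Gm20489, which had 0 counts. Flt3, the receptor for FLT3 ligand, had 0 counts in every mouse, and Csf3r had 1, 0, 0 and 1. Epor, the receptor for erythropoietin, was at 14.2, 0.181, 7.16 and 5.30 TPM. It was highest in mouse 1 and lowest in mouse 2, as was the summed level of the erythroid markers, led by Hba-a1, Hbb-bs and Hbb-bt, at 4980, 35.0, 1708 and 358 TPM. The part of red cell precursors in the Epor level was not tested.

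Of the 5 receptors listed for pleiotrophin, 4 were expressed, beside 44.2% of all protein-coding genes. Sdc3, a heparan sulfate proteoglycan, reached a median of 37.0 TPM, nucleolin (Ncl) 31.5 TPM, the endocytic receptor Lrp1 12.2 TPM and the receptor phosphatase Ptprz1 6.90 TPM. All 4 were above 1 TPM in every mouse. Alk, another receptor described for pleiotrophin, had 0, 1, 0 and 1 counts. Ncl is better known as a nucleolar protein of every cell.

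**Figure D5:**
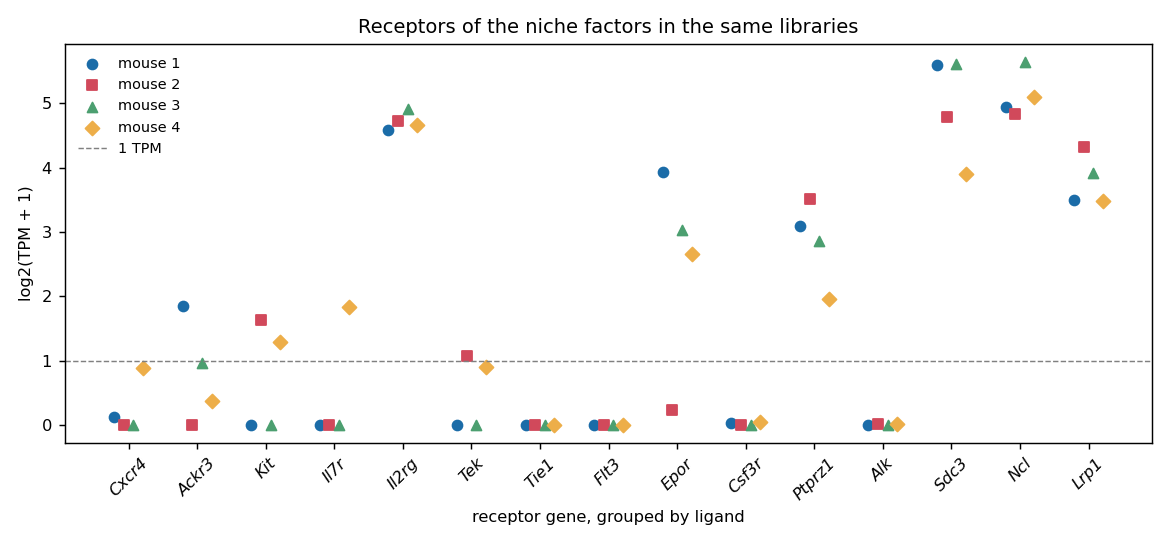
Level of 15 receptor genes in each mouse as log2(TPM + 1), grouped by ligand in the order Cxcl12, Kitl, Il7, Angpt1, Flt3l, Epo, Csf3 and Ptn; the dashed line marks 1 TPM. Il2rg, Sdc3, Ncl and Lrp1 lie well above the line in every mouse, while Kit and Tek are above 0 only in mice 2 and 4.

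Close relatives of the factors were at times higher than the factors themselves. All 5 relatives on the list had a median above 1 TPM, beside 44.2% of all protein-coding genes. Mdk, which encodes midkine, the only sister of pleiotrophin, was at 17.1, 56.9, 134 and 48.8 TPM in mice 1 to 4. Its level exceeded that of Ptn in every mouse, from 17.1 against 11.8 TPM in mouse 1 to 134 against 0.253 TPM in mouse 3. Angpt4, an angiopoietin, was at 54.9, 94.6, 393 and 46.5 TPM, and Angpt2, which can oppose angiopoietin-1, at 47.1, 49.6, 47.4 and 19.0 TPM. Both were above Angpt1 in every mouse. Csf1, whose product acts on a receptor of the same family as KIT and FLT3, was at 26.5, 57.3, 46.1 and 34.9 TPM, and Tslp, which like IL-7 signals through the IL-7 receptor chain, at 2.86, 3.71, 6.87 and 0.800 TPM. Tslp was below Il7 in every mouse, and Csf1 was below Kitl in mice 2, 3 and 4 and above it in mouse 1.

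Of 18 other cytokine and growth factor genes of the marrow, 10 had a median above 1 TPM, beside 44.2% of all protein-coding genes. The highest were Spp1 (42718 TPM), Angptl4 (174 TPM) and Cxcl14 (142 TPM). At 0 counts in every mouse were 6, beside 29.4% of all protein-coding genes. These were the interleukin genes Il3, Il5 and Il11 and Csf2, Lif and Osm. Several of them, like Csf3, are known from the response to infection or inflammation. Of the 10 expressed, 5 were highest in mouse 2 and lowest in mouse 1, the extremes of the 4 leading niche factors. These extremes were found in 9.61% of all expressed protein-coding genes. Of the 5 relatives, 1 had them, namely Csf1, which is also on this list of cytokines.

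Proteases that can cut the factors were also measured, since cleavage ends the activity of CXCL12 and frees soluble stem cell factor. Of 10 listed, 6 had a median above 1 TPM, beside 44.2% of all protein-coding genes. The highest were Mmp2 (619.5 TPM), Ctsk (424 TPM) and Mmp14 (56.4 TPM). Dpp4, which removes the front end of CXCL12, had 1, 2, 0 and 1 counts. Mmp9, described to free stem cell factor in the marrow, had 433, 32, 879 and 0 counts. Adam17 had 1206, 3, 1148 and 670 counts, and its low value rests on the library of mouse 2 alone. A link of protease RNA to the levels of the factors was not tested. Dpp4, Mmp9 and Adam17 were singled out after their values were seen. RNA levels do not give the activity of a protease.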

How the data were processed

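The authors sorted 100 MSCs from each of 4 mice, made full-length cDNA from polyadenylated RNA by oligo-dT priming and template switching, amplified it by PCR and tagmented it. According to the MSC-specific description, reads were aligned to GRCm39 with STAR 2.7.10 and uniquely mapped pairs were counted on exons with featureCounts (Subread 1.6.5), with no strand option. The deposited values are raw counts per gene. The main methods name another pipeline, so this is not certain. The number of columns with values per sample that were not used is 0.

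Counts were divided by the union of exon lengths from GENCODE M21 on GRCm38, whereas the counts were made on GRCm39, and scaled to TPM over 52125 genes (Python 3.11.15, numpy 2.4.6, pandas 2.3.3, scipy 1.17.1). The TPM and test code was tested on simulated data. Median TPM was set against the cutoff of 1 that the study's methods give. Logs used a pseudocount of 1 TPM. In the median ratios of highest to lowest by abundance class, genes with a library at 0 counts were given an unlimited ratio. TMM factors came from edgeR 4.0.16, without a model, since there are no groups to compare. Each library had between 22738604 and 43545349 counts, and 3 counts correspond to 0.0689 to 0.132 CPM. These limits cover counting error alone, because amplified copies without molecular identifiers are not separate molecules. Each library is from a separate mouse. Near-identical transcripts were searched with BLAST 2.17.0 at 95% identity over 100 bases.

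The factors and all gene lists were chosen with earlier results of these data known. The genes named are the 9 factors, all listed receptors and relatives, the 3 highest genes of every other list, marker genes at 0 in every mouse, the 3 genes most like Cxcl12 and Kitl and genes sharing exonic bases with a factor. Of the marker lists, not all of the 3 highest genes are printed, and genes singled out later are stated as such. Promoter sequences are from RefSeq (GRCm38.p6). Some listed genes are not reported here.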

Additional observations from a re-analysis of the deposited data

Results flagged for a closer look

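A mouse far from the other 3 was looked for among 61 values, the levels of the factors, receptors, relatives and niche-cell genes, the neighbour differences and the summed marker lists, by the gap to the nearest mouse divided by the whole range (Dixon's criterion for 4 samples). Of independent, normally distributed values about 1 in 20 would pass, and 13 passed here. TPM values with zeros and overlapping items do not meet these conditions, so the number that passed cannot be set against that rate. Values found in a single mouse give a gap of 1, as for Thpo (mouse 1), Epo (mouse 2), Il7r (mouse 4), the difference of Thpo and Csf3, and the lymphoid markers, which rest on Cd79a in mouse 4. Ptn stood apart in mouse 1 (0.840). Cxcr4 stood apart in mouse 4 (0.890), Angpt2 in mouse 4, where it was low (0.918), and Angpt4 in mouse 3, where it was high (0.861). Lpl, a niche-cell gene for the enzyme that frees fatty acids from lipoproteins, was at 290 TPM in mouse 2 and at 14.7 to 44.5 TPM in the others (0.892). The difference of Kitl and Angpt1 was larger in mouse 3 than in the others (0.870). Macrophage markers stood apart in mouse 3 (0.952) and megakaryocyte markers in mouse 1 (0.914).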

How the results depend on the processing

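The number of expressed factors stayed between 4 and 7 under the 11 alternatives that kept all mice, and was 5 without mouse 3 or without mouse 4, when Flt3l fell below the cutoff. Of all genes, 11948 were expressed, 7666 with a median above 5 TPM and from 11144 to 11901 with a mouse left out. Without a length the means became CPM, another unit, at 7672 for Cxcl12, 161 for Kitl, 32.7 for Il7 and 35.2 for Angpt1. The same setting turned the difference of Epo and Thpo to -0.24. With a mouse left out, the difference of Angpt1 and Il7 ran from -0.34 to 0.70, Ptn and Flt3l from -0.51 to 0.89, Epo and Thpo from -0.77 to 0.82 and Thpo and Csf3 from 0 to 0.77, so the order within these pairs is not settled. Cxcl12 above Kitl (4.87 to 5.37) and Kitl above Angpt1 (1.66 to 2.26) kept their direction. Ratios of highest to lowest mouse with a mouse left out were 2.26 to 4.40 for Cxcl12, 2.31 to 7.52 for Kitl, 5.13 to 8.01 for Il7, 4.40 to 9.68 for Angpt1, 3.34 to 5.18 for Flt3l and 7.33 to 46.6 for Ptn. The ratios of Cxcl12 to Adipoq and Il7 to Pdgfrb under each setting were added after seeing the data. Lengths from another annotation build, 100 cells per library and counting per gene limit these levels. No paired analysis was possible because there is no other group to pair with, and the differences between factors were already taken within each mouse.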
